A study of Homo sapiens with 12 samples.

Results

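The T-cell receptor complex and the proteins that carry its signal were followed as a set of 38 genes, out of 44147 genes listed in the files, in CCRF-CEM cells, an established human T lymphoblast leukemia line. The genes were chosen by name, with earlier results of these data known, and each of the 38 was listed and passed the filter on low counts. RNA was sequenced in 12 libraries, 3 in each of 4 groups: wild-type parent cells with DMSO, the solvent control, parent cells with 100 nM prexasertib for 6 h, and cells of an SLFN11-knockout line under each of these treatments. Prexasertib inhibits CHK1, the kinase of the replication checkpoint, and SLFN11 is a Schlafen family protein that binds stalled replication forks. The labels give no time for DMSO. They name a single knockout line, CB45, so the knockout and what else sets this line apart cannot be told apart. The labels leave unsaid whether a group's libraries are separate cultures. The p-values therefore rest on the spread among these libraries, and that spread may be technical.

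The T-cell receptor binds antigen through its variable chains and signals through the CD3 chains and CD247 (zeta), whose tails are phosphorylated by the kinase LCK, the partner of the coreceptors CD4 and CD8. ZAP70 then binds these tails and phosphorylates the adaptors LAT and LCP2 (SLP-76), which gather VAV1, GRAP2 and the phospholipase PLCG1. From there the signal runs through calcium to the NFAT factors, through RASGRP1 to Ras, and through PRKCQ and the BCL10 and MALT1 complex to NF-kappaB, while the phosphatase PTPN22 restrains it. T leukemia cells carry many of these proteins as marks of their lineage, and CD69 is a surface receptor that appears early when T cells are activated.

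Titles and attached files disagree about the treatment. Each of the 12 titles carries a library name, and for 12 of 12 that name belongs to a file deposited under the opposite treatment in that line. Groups here follow the attachment, and the text writes labelled DMSO and labelled prexasertib. Should the names in the titles be right, every treatment difference and every interaction below would take the other sign, and the DMSO and prexasertib comparisons of the lines would swap.

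Exonic reads summed to 47887791 to 77548202 per library, and levels of a gene are given as CPM, exonic reads scaled to library size by TMM. One library stood apart, parent labelled prexasertib replicate 1: 30.3% of its reads in genes were intronic, against 23.9 to 26.4% in the other 11, and 111 genes, of those with a mean log2 CPM above 1, lay more than 1 log2 unit from the mean of the other libraries of its group, against at most 14 for any other library. Exonic calls that change when it is left out are named with the genes or comparisons they belong to. Of intronic calls only the changes for treatment in parent cells are named. SLFN11 RNA was present in the knockout line, at 67.2 CPM labelled DMSO and 88.4 labelled prexasertib against 95.6 and 117 in parent cells, and a total over the gene does not check a short edited stretch. Of T-cell markers, CD3D, CD3E, CD3G, CD247, CD2, CD5, CD7, LCK and TRBC2 were present in every library. TRAC, also on that list, averaged from 11.4 CPM in parent libraries labelled prexasertib to 26.7 CPM in knockout libraries labelled DMSO. No level is given for TRBC1, the other gene of the list. Of B-cell markers, CD79A and CD79B were present, with a summed list level of 25.3 to 43.7 CPM, while MS4A1 was at 0. NKG7 was the NK marker above 1 CPM, the 6 listed myeloid markers summed to at most 1.74 CPM and the erythroid ones to at most 0.701, and EPCAM averaged 1.49 CPM in parent and 9.55 CPM in knockout libraries labelled DMSO. Their part in the results was not tested.

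On the length-scaled TPM scale, which allows levels of different genes to be compared, the CD3 chain CD3D was the most abundant of the 38, with 448 TPM as the mean of the 4 groups. The adaptor SH2D1A (198 TPM) and the kinase LCK (155 TPM) followed, then PTPRC, the CD45 phosphatase that keeps LCK active, at 69.9 TPM. CD3G (61.4 TPM) and CD3E (60.8 TPM) stood near each other and far above CD247 (14.6 TPM). The coreceptor CD4 had 18.8 TPM, against 1.71 TPM for CD8B and 1.64 TPM for CD8A. TXK, a Tec family kinase, was the lowest at 0.964 TPM. By these values a signaling chain, an adaptor and 2 kinases or phosphatases headed the order, and CD8 RNA lay near its foot. Of the exon length of SH2D1A, 0% is listed as free of another gene. STAG2, whose span holds it, had 87.3% as many exonic reads, and reads of the 2 cannot be told apart in this ranking.

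In parent cells labelled prexasertib against labelled DMSO, 17 of the 38 genes were higher and 7 lower at an adjusted p of at most 0.05 in edgeR's quasi-likelihood test. The 3 genes that were lower by more than 1.5-fold were CD69, PTPN22 and BCL10, and the 3 higher by more than 1.5-fold were CCR7, a chemokine receptor that guides T cells to lymph nodes, SH2D1A and CCR9, a chemokine receptor of thymic and gut T cells. Among all genes tested 3.84% were higher and 7.27% lower past that fold. The 24 called genes were 63.2% of the set. Of all 23045 genes tested 36.3% were called, 18.2% in each direction, and of the 14801 genes at least as abundant as the lowest of the set 50.3%. The set's median log2 difference was 0.15, against 0.04 over all genes tested. Its median absolute difference was 0.26, near the 0.27 of all genes tested. Those include genes less abundant than any of the set, and no median of the more abundant genes is given. In bulk RNA, fewer cells that express a gene and less RNA per cell cannot be told apart. Groups did not overlap for 25 of the 38 genes, against 43.3% of all genes. Without parent labelled prexasertib replicate 1 the counts were 18 higher and 7 lower, with 36.5% of all genes called. Without parent labelled DMSO replicate 1 they were 11 higher and 7 lower, and no share of all genes called is given for that fit. With the authors' TPM values tested in limma, on the log2(TPM + 1) scale, where the median of all genes is shifted by 0.12, the split was 24 higher and 4 lower. The share of all genes called is not given for this or any other TPM result, so these counts have no background.

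In knockout cells the same treatment labels separated fewer of these genes. CD2, an adhesion receptor, IL7R, the interleukin-7 receptor chain, GRAP2, SH2D1A and CCR7 were higher, and CD5, an inhibitory surface receptor, CD4 and CD69 were lower. These 5 higher and 3 lower genes were 21.1% of the set, against 12.9% of all genes tested (6.11% higher and 6.83% lower) and 18.8% of those of at least the same abundance. No gene of the set was called past 1.5-fold, against 2.57% of all genes (0.66% higher and 1.91% lower). The median log2 difference was -0.02 against 0 over all genes, and the median absolute difference was 0.12 against 0.16. Groups did not overlap for 22 genes, against 34.3% of all. Without parent labelled prexasertib replicate 1, which enters here through the shared estimate of the spread, the counts were 9 higher and 5 lower, with 19.2% of all genes called. The calls added were CD3D (0.11), CD28 (0.16), RASGRP1 (0.15) and CCR9 (0.27), all higher, and LCK (-0.12) and VAV1 (-0.14), both lower.

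**Figure D1:**
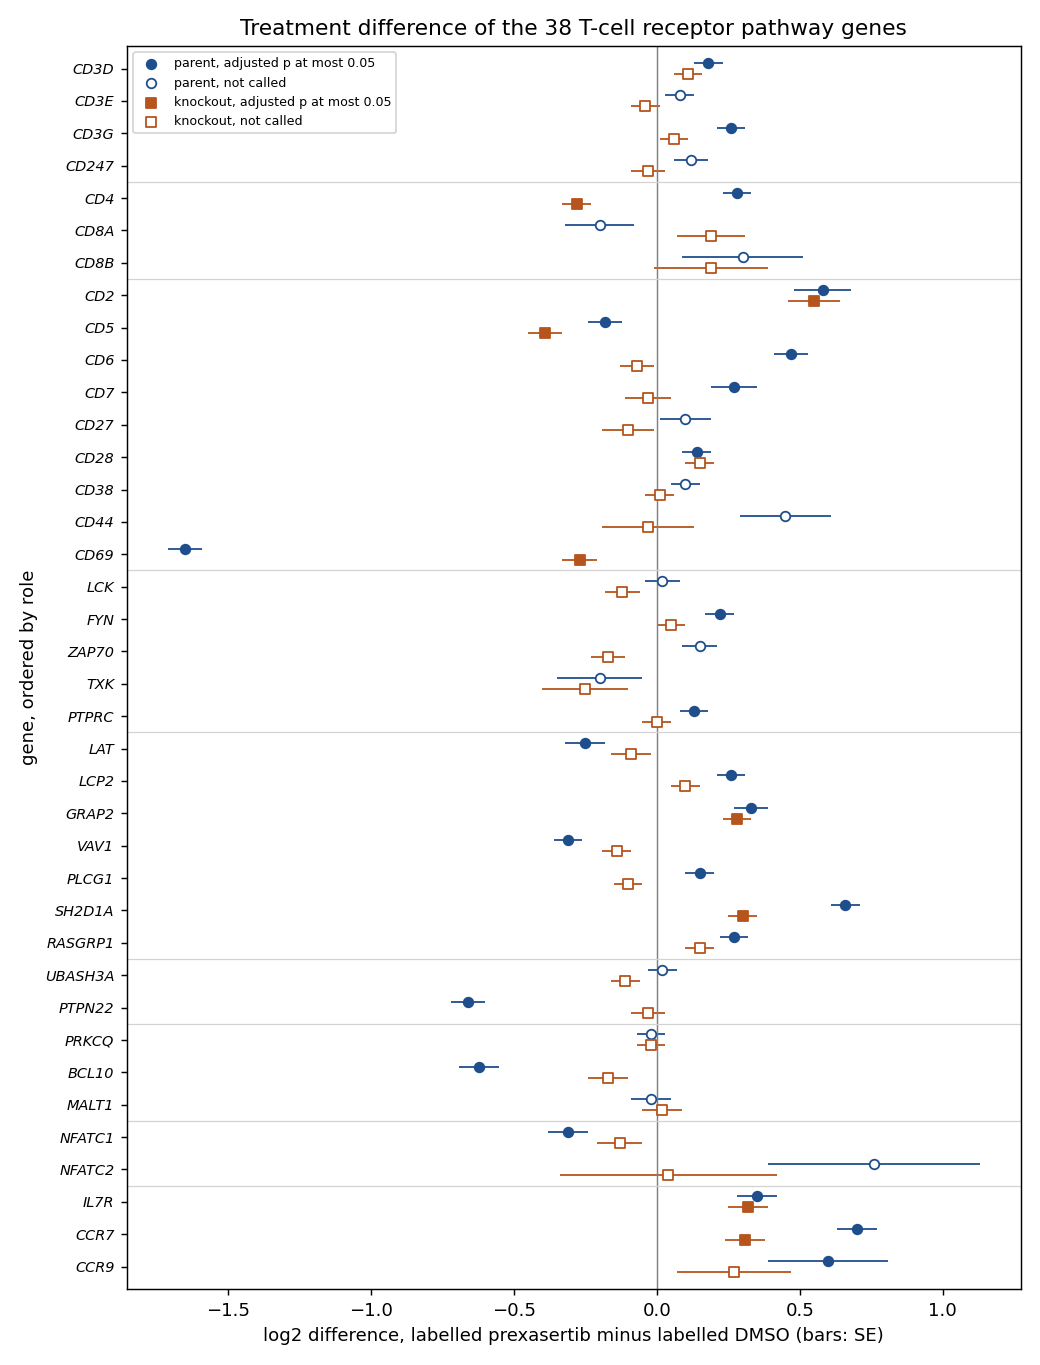
Log2 difference, labelled prexasertib minus labelled DMSO, of each of the 38 genes (vertical axis, ordered by role, grey lines between roles) in parent (blue circles) and knockout (orange squares) libraries. Bars are the standard error, and filled symbols have an adjusted p of at most 0.05. CD69 lies at -1.65 in parent and -0.27 in knockout libraries, PTPN22 and BCL10 lie below 0 in parent libraries, and CD2 and IL7R lie at nearly the same place in both.

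The difference between the lines in the treatment effect, tested as an interaction, passed for 9 genes. The parent difference exceeded that of the knockout for CD4, CD6, ZAP70, PLCG1, SH2D1A and CCR7, and lay below it for CD69, PTPN22 and BCL10. These 9 were 23.7% of the set, against 16.8% of all genes tested (7.32% above and 9.53% below) and 24.7% of those of at least the same abundance, so their share was near that of other genes. CD69 and PTPN22 passed 1.5-fold, as did 4.95% of all genes (1.28% above and 3.66% below). Without parent labelled prexasertib replicate 1 the counts were 11 above and 6 below, with 21.3% of all genes called. ZAP70 was then lost, and CD3E (0.14), CD3G (0.23), CD247 (0.19), CD44 (0.20), LCK (0.19), PTPRC (0.14), CD8A (-0.52), VAV1 (-0.16) and NFATC1 (-0.31) were added. By TPM in limma, which also changes the test and the filter, the counts were 15 and 3, and with upper quartile factors 10 and 3. With DESeq2 size factors, another scaling, the 9 calls of the main test held. Why the counts differ was not tested.

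Between the lines, knockout cells labelled DMSO had more RNA of 16 genes of the set and less of 8 than parent cells labelled DMSO. SH2D1A, CD6, a CD5-related surface receptor, and CD8B were higher by more than 1.5-fold, and CD69 and MALT1, the protease of the BCL10 complex, were lower by more than 1.5-fold, MALT1 only just so, with 6.08% of all genes higher and 8.38% lower past that fold. The 24 called genes made up 63.2% of the set, against 40% of all genes tested (19.6% higher and 20.4% lower) and 53.1% of those of at least the same abundance. The median log2 difference was 0.11 against -0.01 over all genes. Groups did not overlap for 29 genes, against 53.6% of all. By TPM, where the median of all genes is shifted by 0.25, 27 genes were higher and 3 lower.

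Under the label prexasertib, 10 genes were higher in knockout cells and 7 lower, 44.7% of the set, against 28.1% of all genes (14.5% higher and 13.5% lower) and 36.9% of those of at least the same abundance. SH2D1A and CD8B were higher past 1.5-fold, where 9.41% of all genes lay (4.45% higher and 4.96% lower). The median log2 difference was 0.02, against -0.02 over all genes, and groups did not overlap for 19 genes, against 38.1% of all. Without parent labelled prexasertib replicate 1 the counts were 10 higher and 9 lower, with 27.3% of all genes called. CCR9, CD3E, CD27 and LAT (-0.19, edgeR adjusted p = 0.039) were then added, and CD8B and NFATC1 were lost. Without any 1 of 6 other libraries 4 were lower, with no share of all genes called given. By TPM 17 were higher and 2 lower, with the median of all genes shifted by 0.14. The 5 comparisons share libraries and are not independent of one another.

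**Figure D2:**
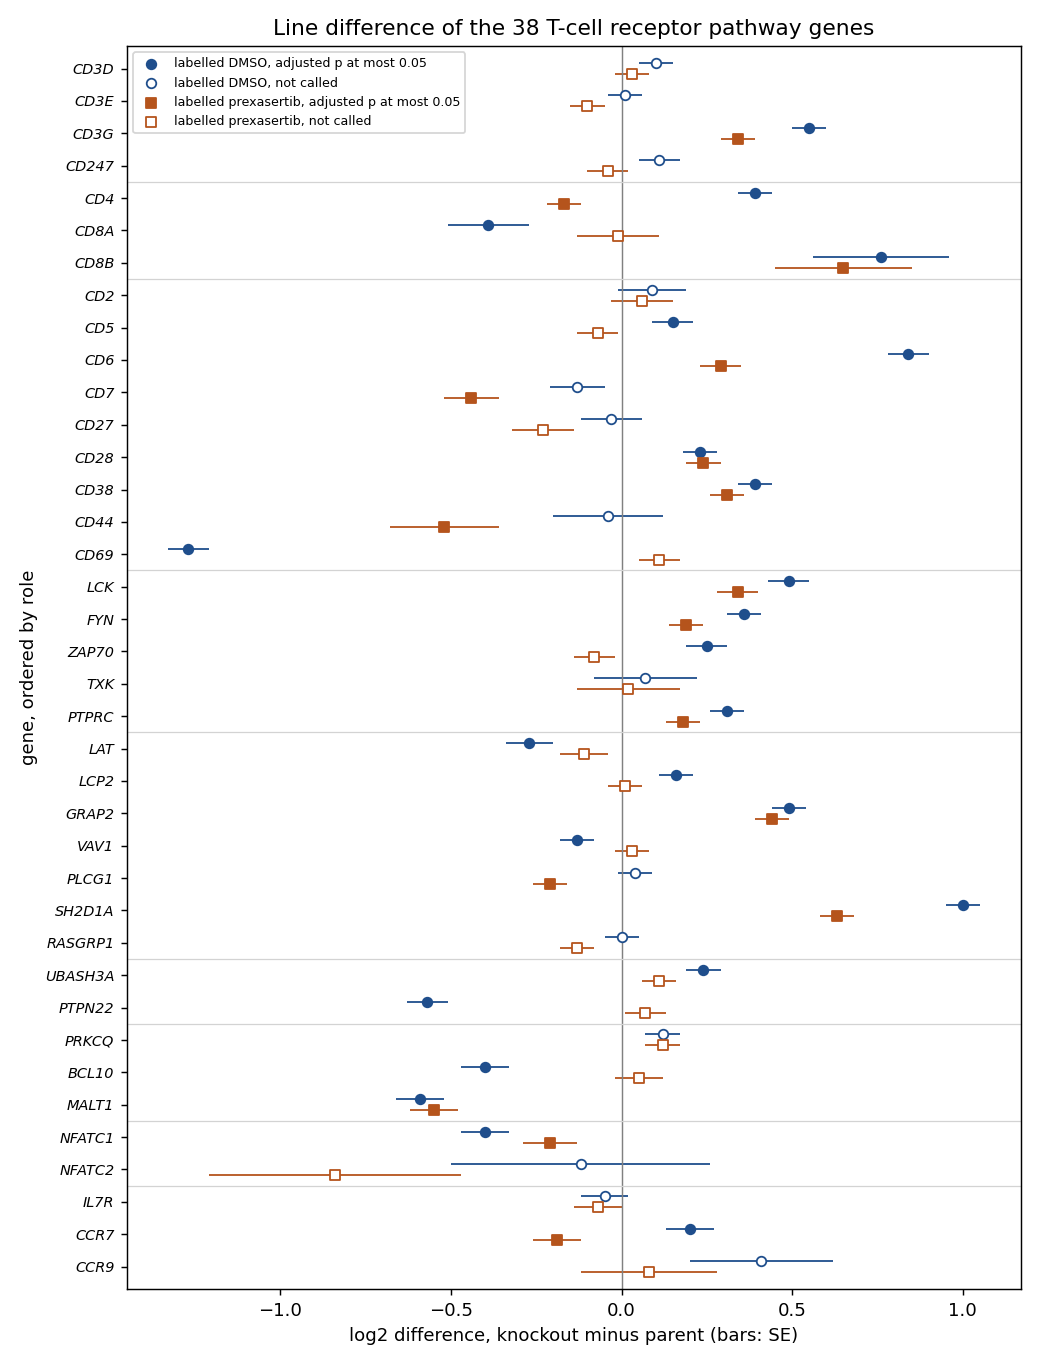
Log2 difference, knockout minus parent, of each of the 38 genes (vertical axis, ordered by role) among libraries labelled DMSO (blue circles) and labelled prexasertib (orange squares). Bars are the standard error, and filled symbols have an adjusted p of at most 0.05. SH2D1A and MALT1 lie on the same side of 0 under both labels, whereas CD69, PTPN22 and BCL10 lie below 0 under the label DMSO and near 0 under the label prexasertib.

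Among the signaling chains, CD3D, CD3E, CD3G and CD247, CD3G differed most. CD3G (chromosome 11) had 158, 147 and 152 CPM in parent libraries labelled DMSO, 168, 191 and 186 labelled prexasertib, 226, 225 and 214 in knockout libraries labelled DMSO and 228, 223 and 240 labelled prexasertib. The 6 knockout values all lay above the 6 parent values. The line difference was 0.55 log2 (SE 0.05, edgeR adjusted p = 5.5e-09) labelled DMSO and 0.34 (SE 0.05, edgeR adjusted p = 2e-05) labelled prexasertib, and the treatment difference in parent cells was 0.26 (SE 0.05, edgeR adjusted p = 0.00037).

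CD3D, on chromosome 11 at 118209669 to 118213459 (hg19), had 312, 326 and 328 CPM in the parent line labelled DMSO, 334, 377 and 386 labelled prexasertib, and 345, 335 and 354, then 374, 362 and 379, in the 2 knockout groups. The parent treatment difference of 0.18 log2 (SE 0.05, edgeR adjusted p = 0.0089) was lost without any 1 of 3 libraries, at 0.12 (edgeR adjusted p = 0.11) when replicate 1 labelled DMSO was left out, 0.15 (0.051) for replicate 2 labelled DMSO and 0.14 (0.078) for replicate 3 labelled prexasertib. CD3E, which with CD3D and CD3G frames the receptor, had 145, 146 and 142 CPM, then 142, 157 and 160, in parent cells, and 146, 147 and 144, then 144, 141 and 142, in knockout cells. CD247 had 45.8, 46.4 and 49.2 CPM, then 46.1, 52.6 and 54.7, in parent cells, and 51.3, 49.9 and 51.7, then 50.7, 49.6 and 49.1, in knockout cells. None of the 5 comparisons passed for CD3E or CD247, with log2 differences of -0.10 to 0.15. Without parent labelled prexasertib replicate 1, CD3E passed in 3 of them and CD247 in 2, the parent treatment difference at 0.11 (adjusted p = 0.019) and 0.16 (adjusted p = 0.0085).

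The coreceptor CD4 moved in opposite directions in the 2 lines. CD4 (chromosome 12, 6896024 to 6929974, hg19) had, in parent cells, 56.9, 61.4 and 57.4 CPM labelled DMSO and 75.1, 67.3 and 71.3 labelled prexasertib, but 74.9, 76.3 and 78.9 in knockout cells labelled DMSO and 63.6, 63.5 and 63.0 labelled prexasertib. Groups overlapped in neither line. The log2 difference was 0.28 (SE 0.05, edgeR adjusted p = 0.0001) in parent cells and -0.28 (SE 0.05, edgeR adjusted p = 0.00056) in knockout cells, and the interaction was 0.56 (SE 0.07, edgeR adjusted p = 4.6e-06). Knockout cells lay above parent cells labelled DMSO by 0.39 log2 and below them labelled prexasertib by -0.17 (edgeR adjusted p = 0.016), a call lost without knockout labelled prexasertib replicate 1 (adjusted p = 0.054) and by TPM, at -0.02. In intronic reads the treatment differences of CD4 were 0.08 and 0.18 in the 2 lines and the interaction -0.10, none of them called. Its intronic line differences were called higher in knockout cells, 0.32 labelled DMSO (edgeR adjusted p = 0.02) and 0.42 labelled prexasertib (edgeR adjusted p = 0.005). The latter is opposite in sign to the exonic -0.17.

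CD8 RNA was low. CD8A had 5.32, 6.68 and 5.34 CPM in the parent line labelled DMSO, 5.7, 4.69 and 4.75 labelled prexasertib, 3.93, 4.31 and 5.04 in knockout cells labelled DMSO and 4.95, 4.94 and 5.2 labelled prexasertib. Its one call was the line difference labelled DMSO, -0.39 log2 (SE 0.12, edgeR adjusted p = 0.012), lost without knockout labelled DMSO replicate 1 (-0.33, adjusted p = 0.069) or parent labelled DMSO replicate 2 (-0.29, adjusted p = 0.092). CD8B, its partner chain, had 1.27, 0.965 and 0.707 CPM, then 1.08, 1.2 and 1.4, in parent cells, and 1.75, 1.84 and 1.44, then 1.87, 2.02 and 1.86, in knockout cells. All 6 knockout values lay above all 6 parent values, with line differences of 0.76 (SE 0.20, edgeR adjusted p = 0.0041) and 0.65 (SE 0.20, edgeR adjusted p = 0.018). The second was lost without parent labelled prexasertib replicate 1 (0.57, adjusted p = 0.054) or knockout labelled prexasertib replicate 2 (0.61, adjusted p = 0.061).

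CD69 showed the widest range of the 38 genes between groups. CD69, on chromosome 12 at 9905082 to 9913497 (hg19), had, in parent cells, 169, 164 and 171 CPM labelled DMSO and 48.4, 57.1 and 54.9 labelled prexasertib. In knockout cells it had 71.1, 67.4 and 70.5 CPM labelled DMSO and 55.4, 57.6 and 59.9 labelled prexasertib. Parent libraries labelled DMSO thus stood alone, and the other 9 libraries lay together well below them. The counts behind these values ran from 2591 to 11910 exonic reads of CD69 per library. The parent difference was 3.14-fold lower, -1.65 log2 (SE 0.06, edgeR adjusted p = 8e-18), and the knockout difference was 1.21-fold lower, -0.27 log2 (SE 0.06, edgeR adjusted p = 0.0015). Their difference was -1.38 (SE 0.08, edgeR adjusted p = 2.5e-12). The lines differed by -1.27 (SE 0.06, edgeR adjusted p = 1.8e-15) labelled DMSO, and by 0.11 (SE 0.06, edgeR adjusted p = 0.17), with overlapping groups, labelled prexasertib. By TPM in limma the last was 0.25 (adjusted p = 0.0069).

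**Figure D3:**
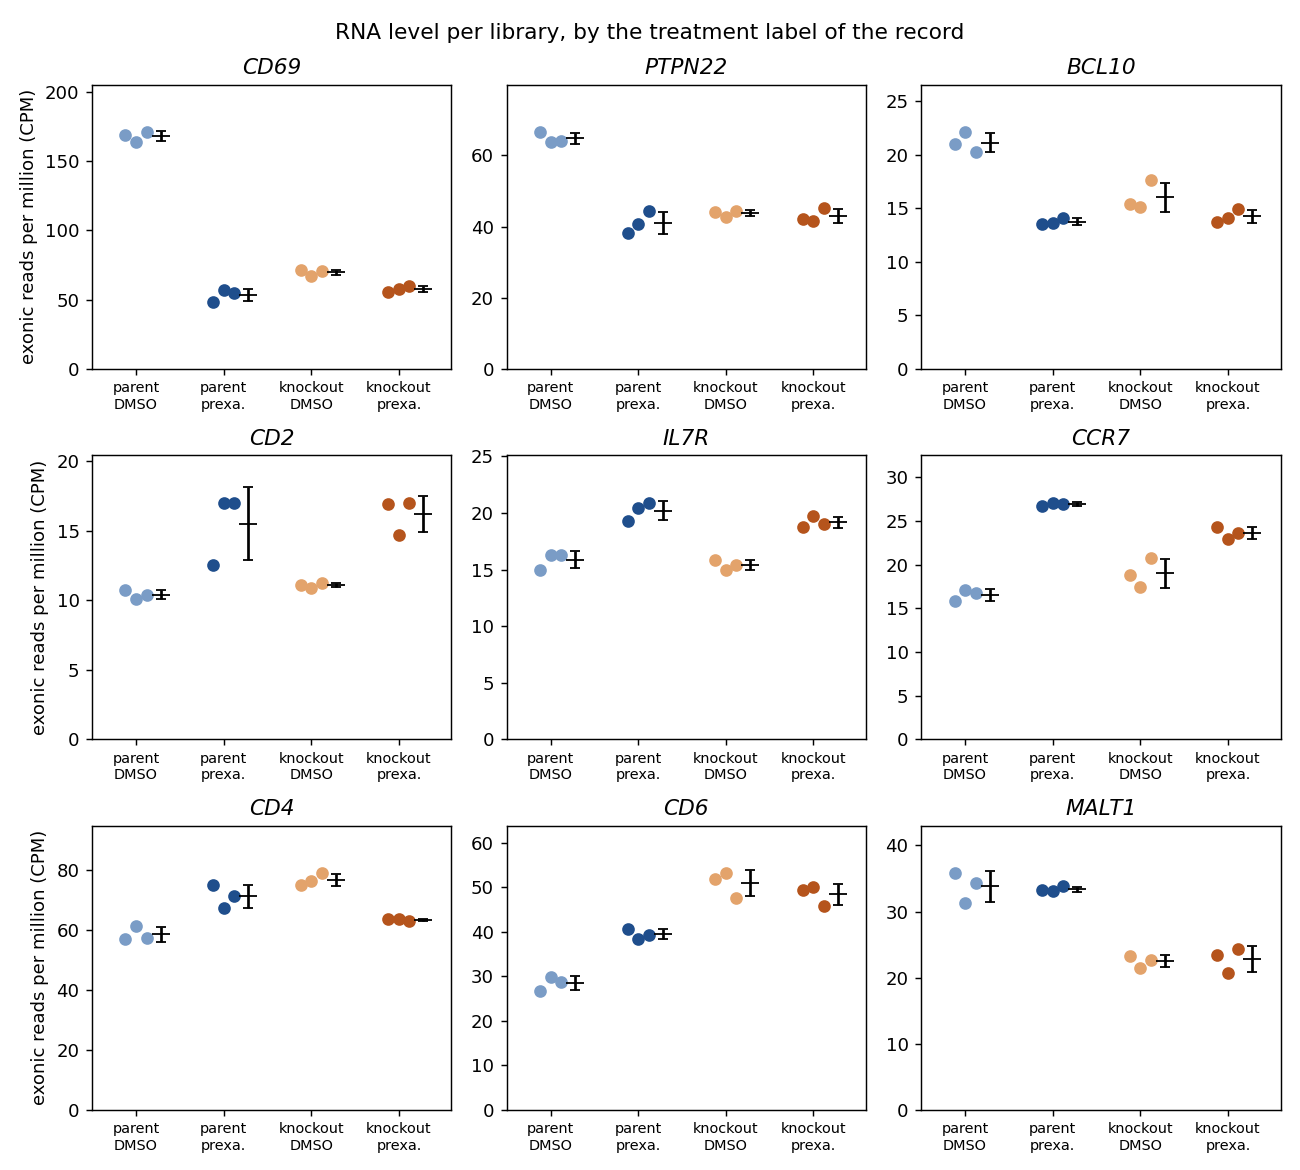
CPM of 9 genes of the set in each library (points, replicates 1 to 3 from left to right) of the 4 groups, with the mean and SD of 3 libraries (black). Each axis starts at 0. CD69, PTPN22 and BCL10 are high in parent libraries labelled DMSO and lower in the other 3 groups, CD2, IL7R and CCR7 are higher under the label prexasertib in both lines, CD4 moves in opposite directions, and CD6 and MALT1 separate the lines.

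CD6, which binds the adhesion molecule ALCAM and dampens receptor signaling, had 26.8, 29.9 and 28.8 CPM in the parent line labelled DMSO, 40.7, 38.5 and 39.4 labelled prexasertib, 52.0, 53.2 and 47.7 in knockout cells labelled DMSO and 49.4, 50.2 and 45.8 labelled prexasertib. The 4 groups gave 3 levels, with the 2 knockout groups overlapping. The parent difference was 0.47 (SE 0.06, edgeR adjusted p = 4.6e-07), the interaction 0.55 (SE 0.08, edgeR adjusted p = 3.2e-05), and the lines differed by 0.84 (SE 0.06, edgeR adjusted p = 1.4e-11) labelled DMSO and by 0.29 (SE 0.06) labelled prexasertib.

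CD2, which binds CD58 on other cells, rose in both lines alike. It had 10.7, 10.1 and 10.4 CPM labelled DMSO and 12.5, 17 and 17 labelled prexasertib in parent cells, and in knockout cells 11.1 ± 0.145 (SD, n = 3) labelled DMSO and 16.9, 14.7 and 17 labelled prexasertib. The log2 differences were 0.58 (SE 0.10, edgeR adjusted p = 2.3e-05) and 0.55 (SE 0.09, edgeR adjusted p = 0.0002), and their difference was 0.03 (SE 0.13). CD5 fell in both, by 0.18 (SE 0.06) and 0.39 (SE 0.06) log2, the parent call being lost without labelled DMSO replicate 3 (adjusted p = 0.057) or labelled prexasertib replicate 2 (adjusted p = 0.098).

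Of the other surface receptors, CD7, an early T-lineage marker, was 0.27 log2 higher in parent cells labelled prexasertib with overlapping groups, and was lost without any 1 of 4 libraries. Between the lines labelled prexasertib CD7 was lower in knockout cells, by -0.44 (SE 0.08, edgeR adjusted p = 0.0004), with no overlap, and this call held whichever library was left out. The costimulatory receptor CD28 was 0.14 higher in parent cells labelled prexasertib than labelled DMSO, a call lost without any 1 of 10 libraries. Between the lines CD28 was higher in knockout cells under both labels, by 0.23 and 0.24. CD38, an ectoenzyme of activated and immature lymphocytes, was also higher in knockout cells under both, by 0.39 and 0.31. CD27, a costimulatory receptor of the TNF receptor family, passed in none of the 5 comparisons, but without parent labelled prexasertib replicate 1 it was lower in knockout cells labelled prexasertib, at -0.31 (edgeR adjusted p = 0.0056). CD44, a hyaluronan receptor, had 139 CPM in parent labelled prexasertib replicate 1 against 88.8 and 88.2 in replicates 2 and 3. With that library its parent difference was 0.45 and not called (edgeR adjusted p = 0.057), and without it 0.17 and called (edgeR adjusted p = 0.003), and its line difference labelled prexasertib went from -0.52 to -0.26, called both times.

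Of the kinases, LCK and FYN were higher in knockout cells under both labels and ZAP70 under the label DMSO. LCK had 350, 382 and 374 CPM, then 337, 388 and 400, in parent cells, and 504, 516 and 530, then 483, 488 and 451, in knockout cells. All 6 knockout values lay above all 6 parent values, by 0.49 log2 (SE 0.06, edgeR adjusted p = 1.9e-07) labelled DMSO and 0.34 (SE 0.06, edgeR adjusted p = 8.2e-05) labelled prexasertib, and no treatment difference was called. The knockout treatment difference of LCK was called without parent labelled prexasertib replicate 1, at -0.12 (edgeR adjusted p = 0.013), and so was its interaction, at 0.19 (edgeR adjusted p = 0.0079). ZAP70 had 154, 188 and 176 CPM, then 186, 190 and 199, in parent cells, and 200, 207 and 207, then 181, 196 and 168, in knockout cells. It was higher in knockout cells labelled DMSO by 0.25 (SE 0.06, edgeR adjusted p = 0.0028), and labelled prexasertib the difference was -0.08 (edgeR adjusted p = 0.39), with overlapping groups. Its interaction of 0.32 (SE 0.09, edgeR adjusted p = 0.013) was lost without any 1 of 4 libraries, among them parent labelled prexasertib replicate 1 (0.31, adjusted p = 0.072).

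PTPRC had 388, 361 and 380 CPM, then 391, 430 and 417, in parent cells, and 474, 467 and 462, then 456, 469 and 480, in knockout cells. It was higher in knockout cells under both labels, by 0.31 log2 (SE 0.05, edgeR adjusted p = 1.3e-05) and 0.18 (SE 0.05, edgeR adjusted p = 0.007), and its parent treatment call of 0.13 was lost without any 1 of 11 libraries. FYN, a kinase of the LCK family, was 0.22 higher in parent cells labelled prexasertib (SE 0.05, edgeR adjusted p = 0.00062) and higher in knockout cells by 0.36 and 0.19. TXK, at 2.18 to 3.47 CPM, passed in no comparison. Of these 5 genes, 4 were called higher in knockout cells labelled DMSO, where 19.6% of all genes were, and 3 labelled prexasertib, where 14.5% were. None was called lower.

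Each of the 7 adaptors and proximal effectors was called in parent cells, 5 higher and 2 lower, in a comparison where 36.3% of all genes and 50.3% of those of at least the same abundance as the set were called. One of the 7, PLCG1, was lost without any 1 of 6 libraries, among them parent labelled prexasertib replicate 1 (0.10, edgeR adjusted p = 0.054). LAT, the membrane scaffold, had 153, 173 and 168 CPM, then 122, 142 and 152, in parent cells, and 131, 140 and 140, then 132, 137 and 116, in knockout cells. It was lower in parent cells labelled prexasertib by -0.25 log2 (SE 0.07, edgeR adjusted p = 0.011) and lower in knockout cells labelled DMSO by -0.27 (SE 0.07, edgeR adjusted p = 0.0062). By TPM the latter difference was 0.01. VAV1, a signaling protein recruited by LCP2, was lower by -0.31 (SE 0.05, edgeR adjusted p = 3.1e-05) in parent cells, with values of 141, 153 and 154 against 114, 123 and 125 CPM. Higher in parent cells were LCP2 by 0.26, GRAP2, the adaptor that links LAT to LCP2, by 0.33, RASGRP1 by 0.27 and PLCG1 by 0.15. GRAP2 was also 0.28 higher in knockout cells labelled prexasertib (SE 0.05, edgeR adjusted p = 0.00066), and higher in knockout than parent cells under both labels.

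SH2D1A (SAP, an adaptor of SLAM family receptors, on chromosome X) was called higher in each of the 4 differences between groups. It had 231, 224 and 229 CPM in the parent line labelled DMSO, 331, 381 and 371 labelled prexasertib, 460, 451 and 456 in knockout cells labelled DMSO and 545, 554 and 577 labelled prexasertib. No 2 groups overlapped. The treatment difference was 0.66 log2 (SE 0.05, edgeR adjusted p = 1.3e-10) in parent and 0.30 (SE 0.05, edgeR adjusted p = 0.00026) in knockout cells, with an interaction of 0.37 (SE 0.07, edgeR adjusted p = 0.00078). Knockout cells had 2-fold as much labelled DMSO (edgeR adjusted p = 5.2e-14) and 1.55-fold as much labelled prexasertib (edgeR adjusted p = 7.1e-10). The files list 0% of the exon length of SH2D1A and CCR9, 0.1% of that of LAT and 2% of that of MALT1 as free of another gene, SH2D1A lying within the span of STAG2, CCR9 within that of LZTFL1, and LAT and MALT1 across transcripts known by clone names. Reads of such partners cannot be told apart here.

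The phosphatase PTPN22, a brake on LCK and ZAP70, followed the pattern of CD69 with a smaller range. PTPN22 (chromosome 1, 114356433 to 114414381, hg19) had 66.5, 63.8 and 64.1 CPM in the parent line labelled DMSO, 38.1, 40.6 and 44.4 labelled prexasertib, 44.0, 42.8 and 44.4 in knockout cells labelled DMSO and 42.1, 41.6 and 45.1 labelled prexasertib. The parent libraries labelled DMSO lay above the other 9, which overlapped. The parent difference was 1.58-fold lower, -0.66 log2 (SE 0.06, edgeR adjusted p = 7e-10), the knockout difference -0.03 (SE 0.06), and the interaction -0.63 (SE 0.08, edgeR adjusted p = 2.5e-06). Between lines labelled prexasertib PTPN22 differed by 0.07 and was not called, while by TPM in limma it was 0.20 higher in knockout cells (adjusted p = 0.018). UBASH3A, the other inhibitory phosphatase, was 0.24 higher in knockout cells labelled DMSO (SE 0.05, edgeR adjusted p = 0.00041) and passed nowhere else.

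In the NF-kappaB branch, BCL10 and MALT1 differed. PRKCQ, the kinase upstream of them, passed in no comparison, but without parent labelled prexasertib replicate 1 it was 0.09 higher in knockout cells labelled DMSO (edgeR adjusted p = 0.045). In intronic reads PRKCQ was called in parent cells at 0.56 (edgeR adjusted p = 0.022), or 0.25 without that library. BCL10, the scaffold of the complex, on chromosome 1 at 85731931 to 85742773 (hg19), had 21.0, 22.1 and 20.3 CPM in the parent line labelled DMSO, 13.5, 13.6 and 14.1 labelled prexasertib, 15.4, 15.1 and 17.6 in knockout cells labelled DMSO and 13.7, 14.1 and 14.9 labelled prexasertib. Parent libraries labelled DMSO again lay above the rest. The parent difference was -0.62 log2 (SE 0.07, edgeR adjusted p = 1.1e-07), the interaction -0.45 (SE 0.10, edgeR adjusted p = 0.0024) and the line difference labelled DMSO -0.40 (SE 0.07, edgeR adjusted p = 5e-05). By TPM in limma the line difference of BCL10 was -0.11 (adjusted p = 0.18). MALT1 had 35.8, 31.3 and 34.3 CPM, then 33.2, 33.1 and 33.8, in parent cells, and 23.3, 21.5 and 22.6, then 23.4, 20.7 and 24.4, in knockout cells. All 6 knockout values lay below all 6 parent values, by -0.59 (SE 0.07, edgeR adjusted p = 5.8e-08) and -0.55 (SE 0.07, edgeR adjusted p = 5e-07), with no treatment difference called.

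NFATC1, a factor that calcineurin sends to the nucleus, was lower in parent cells labelled prexasertib by -0.31 (SE 0.07, edgeR adjusted p = 0.0015) and lower in knockout cells labelled DMSO by -0.40 (SE 0.07, edgeR adjusted p = 9.9e-05). Its line difference labelled prexasertib, -0.21, was lost without any 1 of 8 libraries, and was -0.11 without parent labelled prexasertib replicate 1. NFATC2 had 47.7 CPM in parent labelled prexasertib replicate 1, against 17 and 18.1 in replicates 2 and 3 and 13.7 to 17.6 in the other 9 libraries. Its parent difference of 0.76 (SE 0.37) was not called, and was 0.07 without that library.

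The 3 cytokine and chemokine receptors were called higher in parent cells labelled prexasertib, as were 18.2% of all genes, and 1 of these calls, CCR9, rested on a single library. CCR7 (chromosome 17) had 15.8, 17.1 and 16.8 CPM labelled DMSO and 26.7, 27.1 and 27.0 labelled prexasertib in parent cells, and 18.8, 17.5 and 20.8, then 24.3, 23.0 and 23.6, in knockout cells. Groups did not overlap in either line. The differences were 0.70 log2 (SE 0.07, edgeR adjusted p = 3.9e-09) and 0.31 (SE 0.07, edgeR adjusted p = 0.0018), and the interaction 0.39 (SE 0.09, edgeR adjusted p = 0.0043). Its line differences, 0.20 labelled DMSO and -0.19 labelled prexasertib, were lost without any 1 of 3 and any 1 of 9 libraries.

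IL7R had 15, 16.3 and 16.3 CPM labelled DMSO and 19.3, 20.4 and 20.9 labelled prexasertib in parent cells, and 15.8, 15 and 15.4, then 18.8, 19.7 and 19.0, in knockout cells. Every library labelled prexasertib lay above every library labelled DMSO. The differences were 0.35 (SE 0.07, edgeR adjusted p = 0.00012) and 0.32 (SE 0.07, edgeR adjusted p = 0.0013), with 0.03 (SE 0.09) between the lines. CCR9 had 7.94, 7.82 and 8.06 CPM labelled DMSO and 16.9, 10.1 and 8.95 labelled prexasertib in parent cells, and 10.7, 11.3 and 9.64, then 13.3, 13.4 and 11.4, in knockout cells. Its parent call of 0.60 (SE 0.21, edgeR adjusted p = 0.047) rested on replicate 1 labelled prexasertib, without which it was 0.24 (edgeR adjusted p = 0.054), and it was lost without any 1 of 10 libraries. Without that replicate CCR9 was called in 3 other comparisons, higher in knockout cells labelled prexasertib by 0.42 instead of 0.08 (edgeR adjusted p = 0.001), labelled DMSO by 0.39 (edgeR adjusted p = 0.00033), and under treatment in knockout cells by 0.27 (edgeR adjusted p = 0.019).

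Intronic reads, which come largely from unspliced RNA, were tested for 37 of the 38 genes, CD7 having no tested intronic value. In parent cells 18 were higher and 2 lower labelled prexasertib, against 30.8% of all 19852 genes tested on intronic reads called in either direction, and 15.6% called lower. In knockout cells 10 were higher and 1 lower, against 5.83% and 6.15%. The median log2 difference of the set was 0.25 in parent and 0.14 in knockout cells, against -0.01 and 0.01 over all genes. Without parent labelled prexasertib replicate 1, the library with the highest intronic share, the counts were 16 and 3 in parent cells (16% and 15.6% of all genes) and 13 and 3 in knockout cells (11.4% of all genes higher). In parent cells TXK (0.16) and RASGRP1 (0.13) were then no longer called, and NFATC1 (-0.19, edgeR adjusted p = 0.031) was called lower. With all libraries, the 2 genes lower in parent intronic reads were CD69, at -1.28 (SE 0.08, edgeR adjusted p = 3.4e-11), and PTPN22, at -0.79 (SE 0.07, edgeR adjusted p = 1.5e-08), whose intronic interactions were -1.10 and -0.90. BCL10 was not called there, at -0.16 (SE 0.12).

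GRAP2 differed by 0.91 (SE 0.09) in parent intronic and 0.33 in exonic reads, IL7R by 0.87 (SE 0.16) and 0.35, and CD38 by 0.78 (SE 0.11) and 0.10. Without parent labelled prexasertib replicate 1 the intronic values were 0.77 for GRAP2, 0.90 for IL7R and 0.56 for CD38. The exonic ones were then 0.37, 0.36 and 0.06. VAV1 was lower in exonic reads and higher in intronic reads of parent cells, by 0.36 (SE 0.09, edgeR adjusted p = 0.0026), and in knockout cells its intronic difference was -0.29 (SE 0.08). In knockout cells the largest intronic differences were those of CCR7, 0.92 (SE 0.10, edgeR adjusted p = 1.2e-06), CD2, 0.74 (SE 0.11, edgeR adjusted p = 5.4e-05), and IL7R, 0.61 (SE 0.17, edgeR adjusted p = 0.021). CCR7 had an intronic difference of 0.74 (SE 0.10) in parent cells, so its intronic interaction was -0.18 (SE 0.14) and not called, unlike the exonic one. Exonic and intronic differences were not tested against each other.

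**Figure D4:**
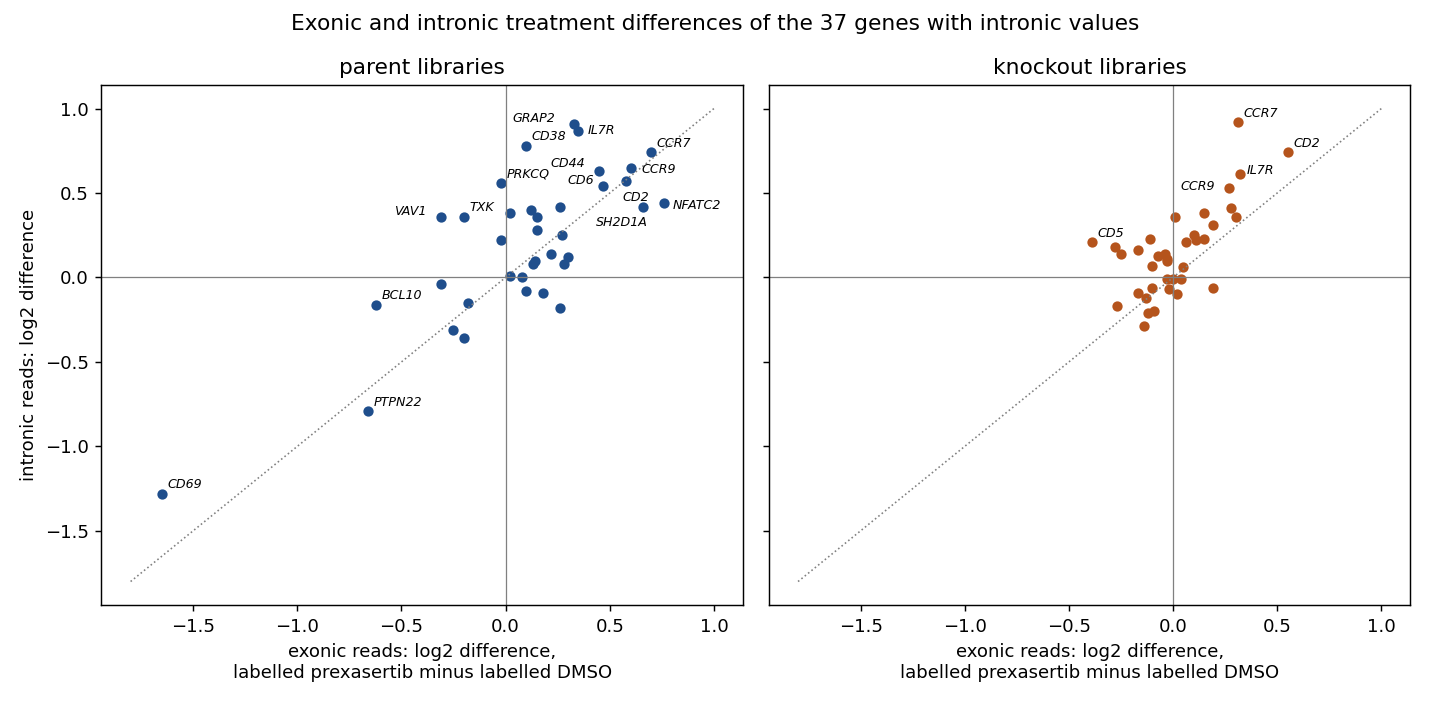
Log2 difference, labelled prexasertib minus labelled DMSO, in exonic reads (horizontal axis) and intronic reads (vertical axis) of the 37 genes with both, in parent (left) and knockout (right) libraries. The dotted line marks equal values. Parent labelled prexasertib replicate 1 is included. In parent libraries CD69 and PTPN22 are low on both axes, VAV1 lies at -0.31 and 0.36, and GRAP2, IL7R and CD38 lie above the dotted line. In knockout libraries CCR7, CD2 and IL7R lie farthest up.

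The promoters of 4 genes are printed, since PTPN22 and BCL10 were lower in parent cells labelled prexasertib while IL7R and CD2 were higher under that label in both lines. The RefSeq promoter set used held windows for 28 of the 38 genes, 42 windows in all. The other 10, CD69 and CCR7 among them, had no entry in it. Each window has 300 bases, from 250 before to 50 after the transcript start, in GRCh38.p14, a build other than that of the files. Capitals mark matches to the motifs listed in the next paragraph. PTPN22 lies at chr1:113871663-113871962 on the minus strand, BCL10 at chr1:85276583-85276882 on the minus strand, IL7R at chr5:35856641-35856940 on the plus strand and CD2 at chr1:116754180-116754479 on the plus strand.
PTPN22: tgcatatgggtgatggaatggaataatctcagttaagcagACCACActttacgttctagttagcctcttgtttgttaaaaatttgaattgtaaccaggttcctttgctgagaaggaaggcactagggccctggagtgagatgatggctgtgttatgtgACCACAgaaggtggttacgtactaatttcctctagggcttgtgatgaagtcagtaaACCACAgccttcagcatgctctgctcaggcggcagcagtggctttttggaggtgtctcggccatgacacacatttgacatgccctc
BCL10: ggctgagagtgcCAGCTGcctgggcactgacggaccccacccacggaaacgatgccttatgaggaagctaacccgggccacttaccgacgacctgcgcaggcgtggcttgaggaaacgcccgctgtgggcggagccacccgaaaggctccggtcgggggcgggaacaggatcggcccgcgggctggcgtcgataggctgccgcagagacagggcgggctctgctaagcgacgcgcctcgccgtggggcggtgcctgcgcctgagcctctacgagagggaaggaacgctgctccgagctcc
IL7R: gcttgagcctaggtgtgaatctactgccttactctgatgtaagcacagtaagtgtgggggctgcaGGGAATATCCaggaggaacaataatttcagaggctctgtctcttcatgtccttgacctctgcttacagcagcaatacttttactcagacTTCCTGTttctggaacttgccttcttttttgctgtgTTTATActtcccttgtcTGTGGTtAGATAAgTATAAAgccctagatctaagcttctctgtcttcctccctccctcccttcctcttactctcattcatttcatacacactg
CD2: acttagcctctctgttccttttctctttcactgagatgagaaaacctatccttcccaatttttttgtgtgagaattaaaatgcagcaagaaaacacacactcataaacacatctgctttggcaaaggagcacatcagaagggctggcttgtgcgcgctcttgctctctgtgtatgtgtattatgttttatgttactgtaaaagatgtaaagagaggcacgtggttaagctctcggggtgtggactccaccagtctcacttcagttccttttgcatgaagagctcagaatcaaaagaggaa

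The motifs were searched on both strands as exact letters: RUNX TGTGGT, E-box CAGCTG or CACCTG, ETS CCGGAAG or ACAGGAA, factors of the GATA family (AGATAA), TCF/LEF CTTTGA, NFAT TGGAAA, the TATA box TATAAA, AP-1 TGANTCA, the CRE core TGACGT and kappaB GGGANNNNCC. PTPN22 held 3 RUNX matches, which start 210, 92 and 36 bases before the transcript start. The RUNX letters occur in 13.1% of all 35116 windows. BCL10 held a single E-box, a motif of 34.5% of windows. IL7R held a kappaB match (25.6% of windows), an ETS (16.7%), a RUNX, a GATA (10.3%) and 2 TATA box matches (11.5%), and CD2 held none of these motifs. The BCL10 window had 69.3% G and C, against 46.7% in PTPN22, 44.3% in IL7R, 42.3% in CD2 and a median of 58.7% over all windows. Over the 42 windows of the set, some of them from the same gene, the kappaB letters occurred in 26.2%, RUNX in 21.4% and E-box in 50%. The TATA box occurred in 11.9% and AP-1 in 11.9% (7.7% of all windows). Below their shares of all windows were ETS at 11.9%, GATA at 4.8% and the CRE core at 4.8% (8.0% of all). So were NFAT at 19.0% (20.7% of all) and TCF/LEF at 11.9% (12.9% of all). A match is a description of the letters and not a site.

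Other genes of the pathway were counted from lists of general knowledge, against the shares of all genes called given above. Of 15 genes of the NF-kappaB branch, 1 was higher and 8 lower in parent cells labelled prexasertib, with a median log2 difference of -0.29, and 0 and 4 in knockout cells, where the median was -0.13. RELB, an NF-kappaB subunit, fell from 35.3 to 2.48 CPM in parent cells, -3.83 log2 (SE 0.12, edgeR adjusted p = 1.7e-17), and from 3.93 to 1.55 CPM in knockout cells, -1.34 (SE 0.14, edgeR adjusted p = 2.3e-07). NFKB1 fell by 0.74 (SE 0.06) in parent cells. In knockout against parent cells labelled DMSO 2 of the 15 were higher and 9 lower.

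Of 37 genes of the calcium, Ras and kinase branches, 15 were higher and 1 lower in parent cells, PDPK1, a kinase upstream of AKT, by 0.52 (SE 0.05), and CALM2, a calmodulin gene, by -0.36 (SE 0.06). In knockout cells 3 were higher and 2 lower. Among 39 kinases, phosphatases and adaptors of proximal signaling other than those of the set, 17 were higher and 9 lower in parent cells. SH2D2A, an adaptor that binds LCK, fell by 1.23 (SE 0.06), and UBASH3B, a phosphatase related to UBASH3A, rose by 0.75 (SE 0.05). FYB, an adaptor that binds LCP2, was 1.15 higher (SE 0.05) in knockout than in parent cells labelled DMSO and 1.10 higher labelled prexasertib.

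Of 24 tested costimulatory and inhibitory receptors, 8 were higher and 6 lower in parent cells labelled prexasertib, and 0 and 2 in knockout cells. PDCD1, the inhibitory receptor PD-1, went from 9.54 to 1.14 CPM in parent cells, -3.06 log2 (SE 0.15, edgeR adjusted p = 7.4e-15), and from 4.27 to 3.02 CPM in knockout cells, -0.50 (SE 0.14, edgeR adjusted p = 0.014), with an interaction of -2.56 (SE 0.20). ICAM1, an adhesion molecule, fell by 2.24 (SE 0.14) in parent cells. Of 16 tested cytokine and trafficking receptors, 6 were higher and 5 lower in parent cells. S1PR1, which guides T cells out of lymphoid tissue, was 1.75 higher (SE 0.06) in knockout than in parent cells labelled DMSO and 2.06 higher labelled prexasertib.

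Of the receptor chains themselves, 5 of 7 were listed in the files. TRBC2, a beta chain constant gene, averaged 559 and 690 CPM in parent cells and 468 and 476 in knockout cells. TRAC, the alpha chain constant gene, averaged 26.7 and 26.6 CPM in knockout cells. In parent cells labelled prexasertib TRBC2 rose by 0.30 (SE 0.05, edgeR adjusted p = 3.2e-05) and TRAC fell by 0.41 (SE 0.07, edgeR adjusted p = 5.4e-05). TRAC was higher in knockout cells by 0.82 (SE 0.07) labelled DMSO and 1.22 (SE 0.07) labelled prexasertib, and PTCRA, the chain that pairs with beta before alpha is made, by 1.38 (SE 0.14) and 1.53 (SE 0.14).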

How the data were processed

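RNA levels came from the record each file is attached to. The authors made the read counts and TPM values on hg19. The submitters' processing notes list, with no roles, STAR 2.5.4a, Picard 2.9.2, Trimmomatic 0.39 and Trim Galore 0.6.2. Which counter, annotation and strand setting were used is not given in the sources used here, so antisense reads cannot be told apart, and the deposited names carry the word dedup with no setting. Each deposited file gave exonic and intronic read counts and TPM values per gene, per the file headers. Genes not listed in a file were taken as 0, 36 Y pseudoautosomal copies were left out of 44183 features, and 1 was added to starts and ends. RNA was total RNA on 1 pooled paired-end run, per the labels' protocols.

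Exonic counts of 23045 genes (filterByExpr, minimum count 10) were tested with edgeR 4.0.16 under R 4.3.3: TMM factors, 4 group means over 12 libraries, robust quasi-likelihood F test, Benjamini-Hochberg adjustment over all genes, called at 0.05. A standard error is the log2 difference divided by the root of F. Alternatives used DESeq2 1.42.0, limma 3.58.1 on the deposited TPM, other filters, scalings and read classes, and each library left out. The test was also run on counts simulated from its own fitted spread, with independent libraries. That run cannot show whether a group's libraries are separate cultures, and its outcome is not given here. Every library's values are given for CD3D, CD3E, CD3G, CD247, CD4, CD8A, CD8B, LCK, ZAP70, LAT, PTPRC and for each other gene called past 1.5-fold with at least 1 CPM. Values of CD2, IL7R, and partly of VAV1, CD44 and NFATC2, were added after they were seen. Of other lists the 2 genes of smallest p per comparison could be named. The members, lists and motifs were chosen with earlier results of these data known, and the AP-1, CRE and kappaB motifs were added after the files were seen. Replicates of a group differed by more than counting noise (chi-square per degree of freedom at least 4.43).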

Additional observations from a re-analysis of the deposited data

Results flagged for a closer look

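For 9 genes of the set the treatment difference in parent cells differed from that in knockout cells in edgeR's quasi-likelihood test of the interaction. Values are the parent difference minus the knockout difference, on the log2 scale. CD69 stood at -1.38 (adjusted p = 2.5e-12), PTPN22 at -0.63 (adjusted p = 2.5e-06) and BCL10 at -0.45 (adjusted p = 0.0024): these fell more in parent cells. CD4 stood at 0.56 (adjusted p = 4.6e-06), with a rise in parent and a fall in knockout cells. CD6 stood at 0.55 (adjusted p = 3.2e-05), CCR7 at 0.39 (adjusted p = 0.0043) and SH2D1A at 0.37 (adjusted p = 0.00078). ZAP70 at 0.32 (adjusted p = 0.013) and PLCG1 at 0.26 (adjusted p = 0.015) were lost when any 1 of 4 libraries was left out. Each interaction turns its sign if the library names, and not the attachments, give the treatment.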

How the results depend on the processing

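Of 82 calls over the 5 comparisons, 63 held whichever library was left out, among them all 8 treatment calls in knockout cells. Leaving out parent labelled prexasertib replicate 1 added 24 calls and ended 5, over 190 results. With 1 library left out, higher and lower calls ranged from 11 to 18 and 6 to 7 for treatment in parent cells, 5 to 9 and 3 to 5 for treatment in knockout cells, 14 to 18 and 6 to 8 between lines labelled DMSO, 9 to 12 and 4 to 9 labelled prexasertib, and 4 to 11 and 3 to 6 for the interaction. A fit of only the 2 groups compared gave 9 higher and 8 lower in knockout cells and 3 lower between lines labelled prexasertib. Intronic reads gave 2 lower in parent cells and 10 higher and 1 lower in knockout cells. Between lines labelled DMSO they gave 5 lower, as were 16% of all genes tested on intronic reads. TPM in limma, with a pseudocount of 1 or 0.1, gave 4 lower in parent cells, 27 higher and 3 lower between lines labelled DMSO, 17 higher and 2 lower labelled prexasertib, and 15 higher in the interaction. For the interaction, upper quartile factors gave 10 higher and all reads of a gene gave 3. Only intronic reads and the fit without parent labelled prexasertib replicate 1 come with shares of all genes called. Counts of the other alternatives, here and above, have no background. The cause of these differences was not tested.

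Same-numbered libraries correlated at -0.06 to 0.12 in their deviations from the group means, so little deviation was shared by replicate number. With 3 libraries per group and genes of low counts included, this cannot settle whether the libraries were paired by design. A fit with the replicate block gave 18 higher and 7 lower in parent cells, 5 and 4 in knockout cells, 16 and 8 between lines labelled DMSO, 10 and 6 labelled prexasertib and 7 and 3 for the interaction. The one call it ended was CD44 labelled prexasertib (-0.50, edgeR adjusted p = 0.057). No share of all genes called is given for the replicate block fit.

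Signs that turned where the exonic or the alternative value was called are listed here, and turns between uncalled values are not. By intronic reads they were, for treatment in parent cells, CD3D -0.09, CD3G -0.18, VAV1 0.36, TXK 0.36 and PRKCQ 0.56 (0.18 by all reads), where TXK became 0.16 and PRKCQ 0.25 without parent labelled prexasertib replicate 1; in knockout cells, CD4 0.18, CD5 0.21 and UBASH3A 0.23; between lines labelled DMSO, CCR7 -0.05, CD28 -0.04, CD2 -0.29, CD5 -0.22, CD8A 0.28 and VAV1 0.44; labelled prexasertib, CCR7 0.13, CD38 -0.08, CD4 0.42, FYN -0.06 and PTPRC -0.08; for the interaction, CCR7 -0.18, CD4 -0.10 and VAV1 0.65. By the same rule TPM turned 5 line differences labelled DMSO at pseudocounts of 1 and 0.1: CD27 to 0.23 and 0.25, IL7R to 0.18 and 0.23, RASGRP1 to 0.24 and 0.27, VAV1 to 0.14 and 0.15, and LAT to 0.01 with both. SH2D1A, LAT, MALT1 and CCR9 could not be tested on reads outside other genes.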
